A study of Mus musculus with 15 samples.

Results

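The Nr4a family comprises 3 genes, Nr4a1, Nr4a2 and Nr4a3, that were chosen by symbol among the 55450 genes counted in the gastrocnemius, and each symbol matched 1 gene identifier. They encode orphan nuclear receptors known as Nur77, Nurr1 and Nor1. The donors were C57BL/6JN females of more than 17 months, placed after sacrifice, by a set of health and performance tests, with thresholds set within the cohort itself, in Low (at most 1 frailty marker, labelled robust) and High (at least 2 frailty markers, labelled frail) groups. Mice had been randomly assigned to running or rest before that, and had either completed 2 bouts of downhill running on a treadmill with a 22° decline at up to 13 m/min, and were sampled 24 h later (Run), or remained sedentary in their cages (Control). RNA sequencing covered 3 High Control mice and 4 mice of each of the other groups (High Run, Low Control, Low Run), with 1 library each, and mice are named here by the number in their label (D8, D9 and so on). All mice were old females, no young group was sequenced, and the single time point after running is a day after the last bout.

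Unlike most nuclear receptors, the Nr4a proteins need no known natural ligand, because bulky side chains fill the pocket in which other receptors bind a hormone. Their activity is therefore set largely by how much of them is made, and their genes respond within minutes to hours to cyclic AMP, calcium and stress signals through CREB, MEF2 and related factors. In skeletal muscle they are known as receptors induced by exercise and by β-adrenergic signalling, with targets in glucose and lipid use. The comparisons below follow the design of the study, which asked whether mice with more frailty markers respond differently to running.

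The DNA just upstream of each start of transcription is shown because it carries the binding element through which cyclic AMP and calcium signals are known to reach these genes. RefSeq promoter windows on GRCm38.p6, from 250 bases before to 50 bases after the start, were found for 3 of the 3 genes. Each holds 4 matches to the CRE half-site TGACG, counted on both strands. Capitals mark the matches, which read CGTCA where the half-site lies on the opposite strand, and each stretch is written 5′ to 3′ on the strand of its gene. The first stretch is chr15:101266596-101266845 on the plus strand, 250 bases upstream of the RefSeq start of Nr4a1, which lies inside the longer GENCODE gene. The second is chr2:57124004-57124253 on the minus strand, 250 bases upstream of Nr4a2. The third is chr4:48045055-48045152 on the plus strand, the 98 bases of the Nr4a3 window that precede the annotated gene, and it shows 3 of the 4 matches.
Nr4a1: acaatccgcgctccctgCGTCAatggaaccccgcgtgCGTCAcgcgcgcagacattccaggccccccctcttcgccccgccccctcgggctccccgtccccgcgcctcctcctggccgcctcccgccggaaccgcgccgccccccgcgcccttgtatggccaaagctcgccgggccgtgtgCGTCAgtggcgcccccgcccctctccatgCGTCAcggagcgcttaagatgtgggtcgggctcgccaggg
Nr4a2: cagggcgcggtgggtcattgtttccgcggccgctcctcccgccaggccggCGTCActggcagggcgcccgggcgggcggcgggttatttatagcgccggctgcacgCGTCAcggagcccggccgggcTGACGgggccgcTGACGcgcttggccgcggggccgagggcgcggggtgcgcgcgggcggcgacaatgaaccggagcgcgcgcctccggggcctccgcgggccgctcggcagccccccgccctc
Nr4a3: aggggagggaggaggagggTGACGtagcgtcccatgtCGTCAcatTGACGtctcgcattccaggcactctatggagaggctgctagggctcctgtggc

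In Nr4a1 all 4 half-sites lie on the opposite strand, as a pair starting 233 and 213 bases before the start of transcription and a pair starting 69 and 40 bases before it. In Nr4a2 they start 200, 144, 123 and 111 bases before the start, the last pair on the strand of the gene. In Nr4a3 they start 231, 213, 205 and 147 bases before it. Among all 32817 RefSeq windows of the same length, 20.8% hold at least 1 half-site and 76, or 0.232%, hold at least 4, a limit that was set after the members' matches had been counted. The windows were 72.3% (Nr4a1), 81.7% (Nr4a2) and 64.7% (Nr4a3) G or C. The shares over all windows are not matched for base content. The full CRE, TGACGTCA, was in none of the 3 windows and in 1.79% of all windows. Neither the AP-1 site TGANTCA (7.81% of all windows), nor the receptors' own monomer site AAAGGTCA (1.51%), nor the CArG box bound by SRF (1.63%) had a match in these 3 windows. The letters TATAAA occurred once, on the opposite strand in Nr4a2, against 13.6% of all windows with a match. These matches describe letters in a window and are not measurements of binding.

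**Figure D1:**
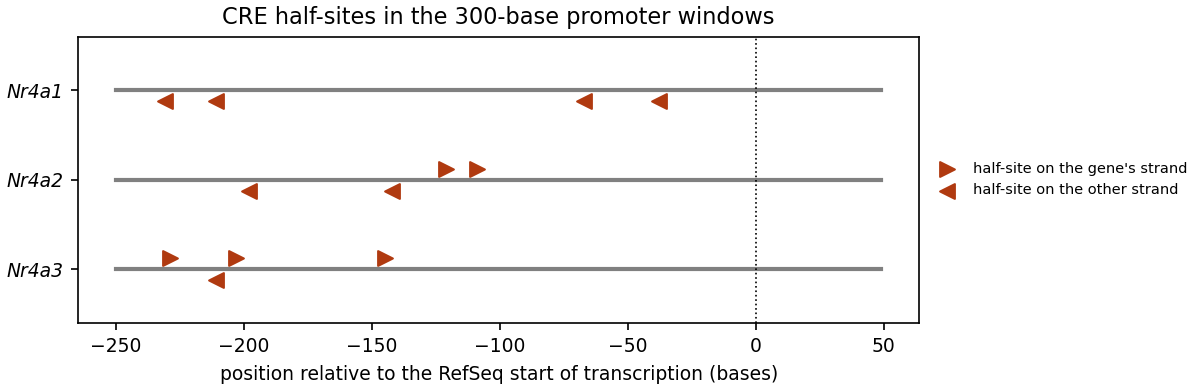
CRE half-sites in the promoter window of each Nr4a gene. The x axis is the position in bases relative to the RefSeq start of transcription (dotted line), each grey bar is a 300-base window, and triangles point right for half-sites on the strand of the gene and left for those on the opposite strand. Each window holds 4, all of them upstream of the start.

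The gastrocnemius libraries held between 19395125 and 30699216 counts (median 25926420), and 16920 genes passed the filter on low counts, among them 3 of the 3 Nr4a genes. Muscle fibre transcripts led the libraries. By mean CPM (counts relative to library sizes scaled by TMM) the fast myosin gene Myh4 ranked 1, the skeletal actin gene Acta1 ranked 3 and the creatine kinase gene Ckm ranked 4. Each pair of mice within a group differed beyond sampling noise, with a chi-square per degree of freedom of 17.27 or more.

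Nr4a1 (ENSMUSG00000023034) lies on the plus strand of chromosome 15 from 101254269 to 101274795 on GRCm38, with 4 annotated transcripts. Nr4a2 (ENSMUSG00000026826) lies on the minus strand of chromosome 2 from 57106830 to 57124003, with 6 transcripts. Nr4a3 (ENSMUSG00000028341) lies on the plus strand of chromosome 4 from 48045153 to 48086447, with 4 transcripts. All are protein-coding, no other annotated gene overlaps them, and their values are counts over the whole gene.

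Nr4a1 was by far the most abundant member. Per kilobase of exon, its level was 71.2 ± 28.6 CPM per kilobase (SD, n = 15 mice), against 3.81 ± 3.42 for Nr4a3 and 1.11 ± 0.64 for Nr4a2. On this scale Nr4a1 ranked 1 of 49 nuclear receptor genes, above the circadian repressor Nr1d1 at 50.4 CPM per kilobase and the retinoid receptor Rxra, a heterodimer partner of Nr4a1 and Nr4a2, at 41.3. Nr4a3 ranked 19 and Nr4a2 ranked 31. The members also differed in how much they varied between mice. The highest mouse exceeded the lowest 3.89-fold for Nr4a1, 4.90-fold for Nr4a2 and 14.4-fold for Nr4a3. The biological coefficient of variation estimated within groups was 0.285 for Nr4a1, 0.341 for Nr4a2 and 0.694 for Nr4a3, beside 0.266 as the common value over all genes. Between 54 and 324 counts stood behind each value of Nr4a2, between 117 and 1603 behind Nr4a3 and between 3020 and 12183 behind Nr4a1.

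**Figure D2:**
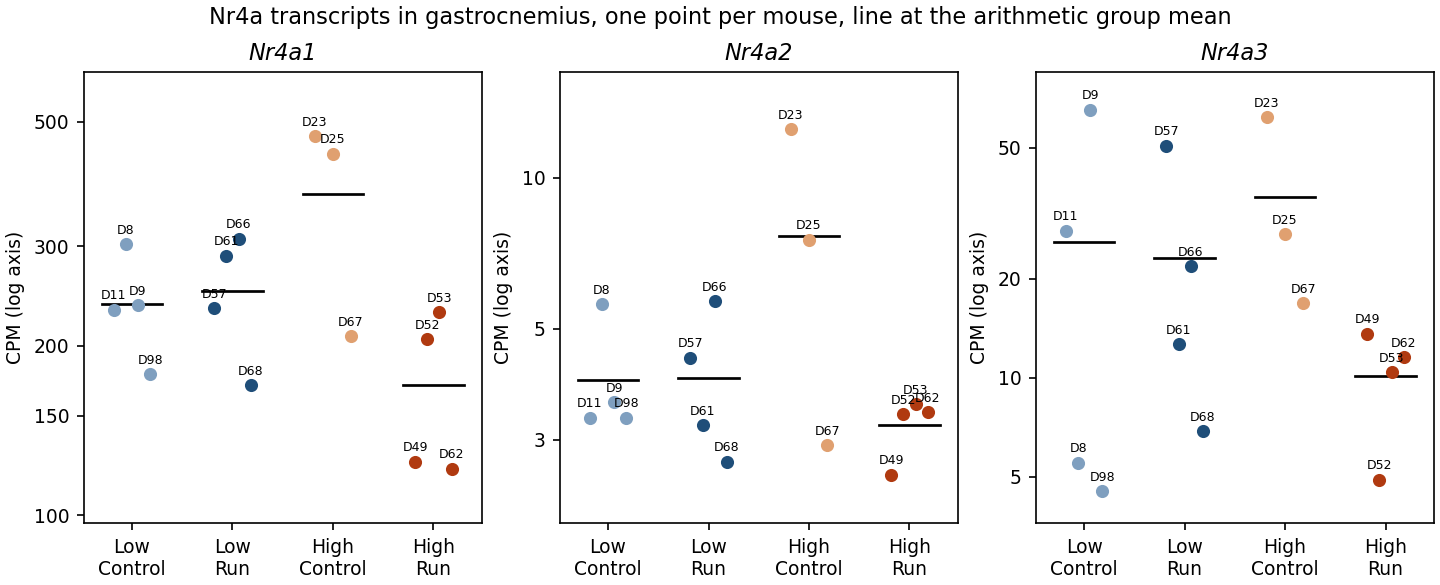
Levels of Nr4a1, Nr4a2 and Nr4a3 in each mouse. The y axis of each panel is CPM on a log axis, the x axis gives the 4 groups, each point is 1 mouse with its number, and the line is the arithmetic mean of the group. The High Control mice D23 and D25 hold the highest values of Nr4a1 and Nr4a2, whereas Nr4a3 is spread widely in both Low groups, from 4.52 to 65.2 CPM in Low Control.

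Nr4a1 encodes the family member most studied in muscle carbohydrate metabolism. In Low Control mice its level was 303 CPM in D8, 236 in D9, 232 in D11 and 178 in D98. In Low Run mice it was 233 CPM in D57, 289 in D61, 310 in D66 and 170 in D68. These groups spanned almost the same range. In High Control mice Nr4a1 was 470 CPM in D23, 438 in D25 and 208 in D67, and in High Run mice it was 124 in D49, 205 in D52, 229 in D53 and 121 in D62. D23 and D25 stood above every other mouse of the study, and D49 and D62 below every other mouse, while D67 lay among the High Run values, so that the High groups overlapped. By group mean the order was High Control (372 ± 143 CPM, SD, n = 3), Low Run (250 ± 62.6, n = 4), Low Control (237 ± 51.3, n = 4) and High Run (170 ± 55.5, n = 4). Each neighbouring pair of groups in this order overlapped.

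Nr4a2 encodes Nurr1, best known for its part in dopamine neurons, and was the least abundant member per kilobase. Its level was 5.60 CPM in D8, 3.56 in D9, 3.32 in D11 and 3.32 in D98 of Low Control, and 4.37 in D57, 3.21 in D61, 5.67 in D66 and 2.71 in D68 of Low Run. In High Control it was 12.5 CPM in D23, 7.53 in D25 and 2.92 in D67. In High Run it was 2.55 CPM in D49, 3.37 in D52, 3.53 in D53 and 3.40 in D62. The same pair of High Control mice, D23 and D25, was again above all others, and D67 lay within the range of the runners. The means were 7.65 ± 4.80 CPM (SD) for the 3 High Control mice, 3.99 ± 1.32 for the 4 Low Run, 3.95 ± 1.11 for the 4 Low Control and 3.21 ± 0.446 for the 4 High Run mice. Neighbouring groups in this order also overlapped.

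Nr4a3 encodes Nor1, which responds to β-adrenergic stimulation and exercise. Its level was 5.51 CPM in D8, 65.2 in D9, 27.95 in D11 and 4.52 in D98 of Low Control, and 50.8 in D57, 12.6 in D61, 21.9 in D66 and 6.87 in D68 of Low Run. In High Control it was 61.9 CPM in D23, 27.2 in D25 and 16.9 in D67. In High Run it was 13.6 CPM in D49, 4.90 in D52, 10.4 in D53 and 11.6 in D62. Every High Run mouse was therefore below every High Control mouse, while the Low groups covered one another from a few CPM to over 50. The means were 35.3 ± 23.6 CPM (SD) for the 3 High Control mice, 25.8 ± 28.4 for the 4 sedentary Low mice, 23.04 ± 19.5 for the 4 Low Run and 10.1 ± 3.73 for the 4 High Run mice, and neighbours in this order overlapped.

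In mice with few frailty markers, the mean levels of the Nr4a genes with and without running were close. The log2 fold change from Low Control to Low Run was 0.08 (95% confidence interval -0.51 to 0.67) for Nr4a1, 0.02 (-0.73 to 0.76) for Nr4a2 and -0.16 (-1.72 to 1.40) for Nr4a3. With edgeR's quasi-likelihood test their adjusted p-values (Benjamini-Hochberg) were 0.915, 0.988 and 0.935. Of the 3 genes 0 had an unadjusted p under 0.05, whereas 13.4% of all genes tested did (7.52% lower and 5.92% higher with running), and 0 genes of any kind passed an adjusted p of 0.1 (0% of those tested). By the other tools 10 genes passed with DESeq2, 0 with voom and 0 with limma on the variance-stabilized values, none of them an Nr4a gene. The interval of Nr4a3 was the widest of the 3 and allows a change of more than 1 log2 unit in either direction.

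In mice with more frailty markers, the mean levels of all 3 members were lower after running, although no difference passed the adjusted threshold. Nr4a1 was 2.19-fold lower in High Run than in High Control (log2 fold change -1.13, SE 0.30, 95% confidence interval -1.77 to -0.49, unadjusted p = 0.00171). Nr4a2 was 2.38-fold lower (log2 fold change -1.25, SE 0.37, interval -2.04 to -0.47, unadjusted p = 0.00378). Nr4a3 was 3.49-fold lower (log2 fold change -1.81, SE 0.80, interval -3.50 to -0.11, unadjusted p = 0.0381). By unadjusted p of edgeR's quasi-likelihood test they ranked 26, 55 and 660 among the 16920 genes, and their adjusted p was 0.956 each, against a threshold of 0.1. The count of members lower at an unadjusted p under 0.05 was 3 of 3, beside 1.9% of all genes tested that were lower and 3.28% that were higher at that p. Across all genes 0 passed the adjusted threshold (0%), 877 (5.18%) had an unadjusted p under 0.05, and 15 passed with DESeq2, 45 with voom and 0 with limma on the variance-stabilized values, none of them an Nr4a gene. Groups without overlap and lower in High Run were found for Nr4a3 alone of the 3 members, and for 3.6% of all genes.

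The size of these differences depended on single High Control mice. Without D23 the log2 fold change was -0.93 for Nr4a1 (unadjusted p = 0.0134 in edgeR's quasi-likelihood fit), -0.71 for Nr4a2 (0.0692) and -1.13 for Nr4a3 (0.213). Without D67 the same values were -1.42, -1.64 and -2.14. When edgeR was run without the filter on low counts, Nr4a1 alone of the members passed the threshold (log2 fold change -1.15, adjusted p = 0.0927), and over all alternatives its adjusted p ran from 0.0927 to 1.00.

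**Figure D3:**
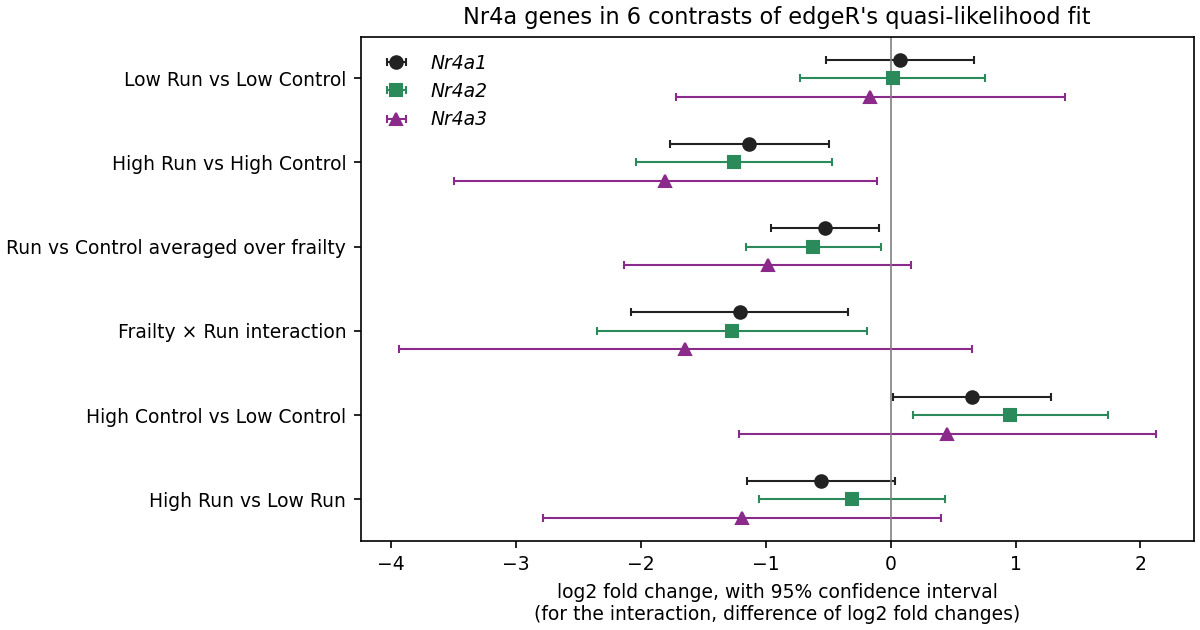
Fold changes of the Nr4a genes in 6 contrasts. The x axis is the log2 fold change from edgeR's quasi-likelihood fit (for the interaction, the difference of 2 log2 fold changes), points are estimates for Nr4a1 (circles), Nr4a2 (squares) and Nr4a3 (triangles), and bars are 95% confidence intervals. The intervals of all 3 genes lie below 0 for High Run vs High Control and span 0 for Low Run vs Low Control.

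The difference between the running responses of High and Low mice was tested directly as the Frailty × Run interaction. The response of Nr4a1 was lower in High mice by a log2 difference of -1.21 (SE 0.41, unadjusted p = 0.00956) and that of Nr4a2 by -1.27 (SE 0.51, unadjusted p = 0.0242), each with an adjusted p of 0.600 in edgeR's quasi-likelihood test. For Nr4a3 the difference was -1.64 (SE 1.08, unadjusted p = 0.149, adjusted p = 0.624). Thus 2 of 3 members had a lower response at an unadjusted p under 0.05, beside 2.69% of all genes with a lower and 5.24% with a higher response. With 1 mouse left out this count ranged from 1 to 3. The Nr4a2 difference was -0.72 without D23, and over these fits its unadjusted p in edgeR's test went up to 0.148. Over all genes 1342 (7.93%) had an unadjusted p under 0.05, and 0 (0%) passed the adjusted threshold in edgeR, DESeq2, voom or limma on variance-stabilized values. Averaged over both frailty groups, the log2 fold change with running was -0.53 for Nr4a1 (unadjusted p = 0.0209), -0.62 for Nr4a2 (0.0275) and -0.98 for Nr4a3 (0.0885), with adjusted p-values of 0.504, 0.533 and 0.634 from edgeR. Without D23 the average was -0.43 for Nr4a1 (unadjusted p = 0.0695), -0.35 for Nr4a2 (unadjusted p = 0.165) and -0.64 for Nr4a3, and without D9 it was -0.48 for Nr4a3. At an unadjusted p under 0.05, 3.04% of all genes were lower in this average. For the average, 0 genes passed in edgeR (0%; 1461 genes, or 8.63%, at an unadjusted p under 0.05), 106 in DESeq2 and 0 in voom and in limma.

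In sedentary mice the mean CPM of each gene was higher in the High group, and the groups overlapped for all 3 genes. The log2 fold change from Low Control to High Control was 0.65 (95% confidence interval 0.02 to 1.29, unadjusted p = 0.0454) for Nr4a1, 0.96 (0.18 to 1.74, unadjusted p = 0.0195) for Nr4a2 and 0.45 (-1.21 to 2.12, unadjusted p = 0.571) for Nr4a3. The adjusted p-values were 0.704, 0.704 and 0.878 in edgeR's quasi-likelihood test. Without D23 the values were 0.45 for Nr4a1 (unadjusted p = 0.201), 0.41 for Nr4a2 (unadjusted p = 0.275) and -0.22 for Nr4a3. At an unadjusted p under 0.05, 1.8% of all genes were higher in High Control. After running the values lay below 0, with log2 fold changes from Low Run to High Run of -0.56 for Nr4a1 (unadjusted p = 0.0637), -0.31 for Nr4a2 (0.388) and -1.19 for Nr4a3 (0.133), and of all genes 0.987% were lower at an unadjusted p under 0.05. Without D66 the value of Nr4a2 was -0.094, and without D57 that of Nr4a3 was -0.45. Neither contrast had a gene past the adjusted threshold in edgeR (0%; 992 and 424 genes, or 5.86% and 2.51%, at an unadjusted p under 0.05), DESeq2, voom or limma. Because each group enters several of these contrasts, the 3 High Control values bear on the High Run contrast, the interaction and the control contrast alike.

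Nr4a1 and Nr4a2 followed each other closely from mouse to mouse. Over the 15 mice their log2 CPM had a Pearson r of 0.835 (permutation p = 3e-05, adjusted 9e-05 over 3 pairs) and a Spearman rho of 0.761 (permutation p = 0.00131, adjusted 0.00393). Without D23 and D62, the mice farthest from the median of Nr4a1, r was 0.867, and after group means were subtracted it was 0.772. Among the 16919 other genes tested, Nr4a2 was the one most like Nr4a1 over the 15 mice, and Nr4a1 was the one most like Nr4a2.

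Nr4a3 was less tied to the others. Its r with Nr4a1 was 0.444 (two-sided permutation p = 0.0987, adjusted 0.0987, rho 0.525 with p = 0.0478 and adjusted 0.0717) and with Nr4a2 it was 0.462 (permutation p = 0.0805, adjusted 0.0987, rho 0.382 with p = 0.160 and adjusted 0.160). Without the mice farthest from the median these values of r were 0.293 (D23 and D62 left out) and 0.131 (D23 and D25 left out), and after group means were subtracted they were 0.191 and 0.277. D9 and D57 had among the highest Nr4a3 levels of all mice at middling Nr4a1 levels, and D8 had a low Nr4a3 level beside the third highest value of Nr4a1 in a sedentary mouse.

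**Figure D4:**
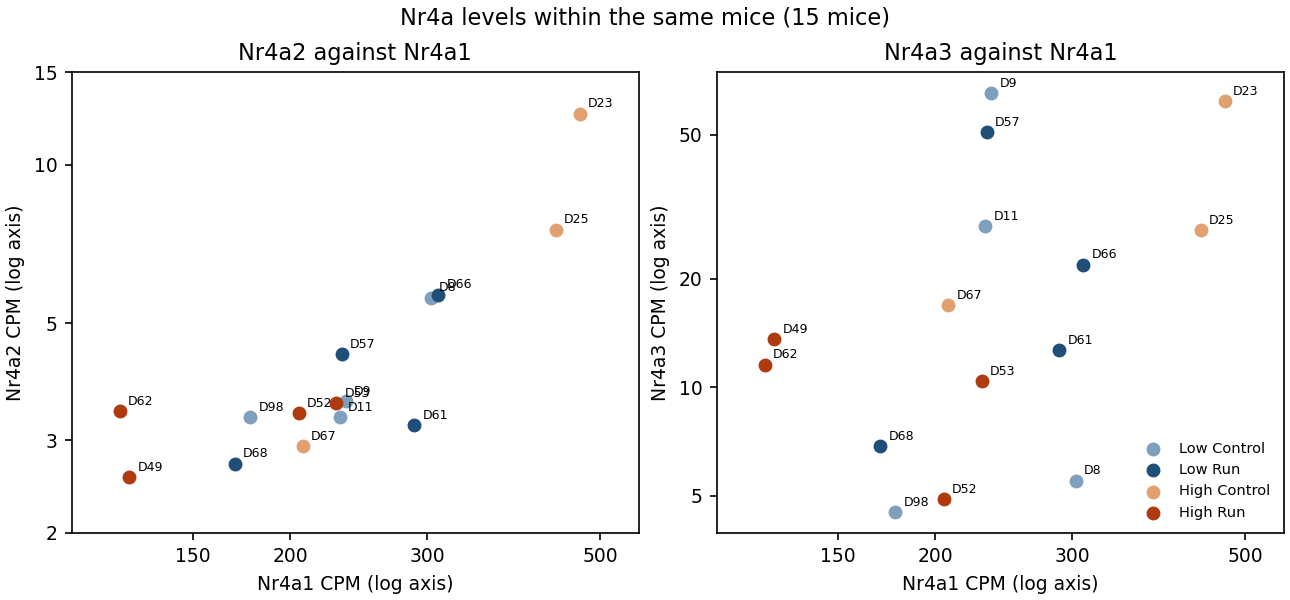
Levels of Nr4a2 (left) and Nr4a3 (right) against Nr4a1 in the same mice. Both axes are CPM on log axes, each point is 1 of 15 mice with its number, and colours give the group. Nr4a2 climbs with Nr4a1 (r = 0.835), whereas mice with Nr4a1 levels near that of D11 (232 CPM) range widely in Nr4a3 (r = 0.444).

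The genes whose levels ran most like those of Nr4a1 after Nr4a2 were the proton channel gene Otop1 (r = 0.832), the pseudogene E130201H02Rik (0.801), the monoamine oxidase gene Maob (0.796) and Ccdc85c (0.783). Maob had 46.4 ± 4.19 CPM in High Control (SD, n = 3) and 35.7 ± 5.02 in High Run (n = 4). Those most like Nr4a2 after Nr4a1 were the pseudogene AC127256.2 (0.805), the adhesion gene Kirrel3 (0.792), the deubiquitinase gene Usp10 (0.742) and A530041M06Rik (0.716). Several of these, among them Otop1, Kirrel3 and AC127256.2, had under 2 CPM in every mouse. For Nr4a3 the first was Pgs1, which makes a precursor of the mitochondrial lipid cardiolipin, with r = 0.886 and 0.911 after group means were subtracted. Pgs1 itself varied little, between 28.4 and 36.0 CPM over the 15 mice. It was followed by A330102I10Rik (0.773), the S6 kinase gene Rps6kb2 (0.739), Klhdc4 (0.739) and the elongation factor gene Ell2 (0.737). A330102I10Rik was low as well, with a mean of 0.293 CPM. These values describe the genes picked for the highest r and carry no test.

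Immediate early genes are switched on by many of the same signals as the Nr4a genes. In the High mice 7 of 25 were lower after running at an unadjusted p under 0.05 (1.9% of all genes) and 0 were higher (3.28% of all genes), with a median log2 fold change of -0.31 over the list against 0.05 over all genes tested. The transcription factor gene Egr1 ranged from 53.5 to 161 CPM in High Control and from 17.0 to 39.2 in High Run (log2 fold change -2.25, unadjusted p = 0.00268). The MAP kinase phosphatase gene Dusp1 ranged from 124 to 168 CPM and from 32.6 to 71.4 (log2 fold change -1.30, unadjusted p = 0.00108). Neither gene overlapped between these groups, as was so for 3.6% of all genes on the lower side. With each of the 7 High mice left out in turn, a check chosen after seeing the data, between 5 and 9 of the 25 were lower, 5 of them without D23. Over these fits 1.21% to 2.83% of all genes were lower. In the Low mice 0 of 25 had an unadjusted p under 0.05 (13.4% of all genes) and the median was 0.04. The smallest p-values there were those of Dusp1 (log2 fold change -0.62, unadjusted p = 0.0578) and of Klf10, a TGF-β-inducible repressor (-1.02, 0.0662). Without D8, 5 of the 25 were higher in Low Run, where 788 of all 16875 genes were higher. Without D98, 3 were lower, where 10.2% of all genes were lower. For the interaction 3 of 25 were lower (2.69% of all genes) and 0 higher. This count was 6 without D8 (2.67% of all genes) and 1 without D23 (2.22%) or D68 (2.4%). Between the running groups 6 of 25 were lower in High mice (0.987% of all genes) and 0 higher. None of the list passed the adjusted threshold in edgeR in these contrasts. The paper tested these same mice with DESeq2 at the same threshold of 0.1, so its calls are no separate measurement. It reports Fosb and Junb of this list as lower with running in High mice only.

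Among 28 genes that carry β-adrenergic, calcium and cyclic AMP signals towards Nr4a promoters, 3 were lower and 0 higher at an unadjusted p under 0.05 in each running comparison, with medians of -0.09 in Low and -0.11 in High mice (0.02 and 0.05 over all genes). Of all genes 7.52% were lower in Low and 1.9% in High mice. The count of lower genes in Low mice was 5 without D11 or D98 and 2 without D9, D57 or D68, and in High mice it ranged from 2 to 4 with each mouse left out. Over these fits the share of all genes lower ran from 2.4% (without D9) to 10.2% (without D98) in Low mice. In High mice it ran from 1.21% (without D67) to 2.83% (without D49). The calcineurin subunit gene Ppp3cb was lower in both, with log2 fold changes of -0.28 (Low, unadjusted p = 0.0193) and -0.34 (High, unadjusted p = 0.00933). The gene of the protein kinase A catalytic subunit, Prkacb, had 62.6 ± 9.02 CPM (SD, n = 4) without and 48.6 ± 4.09 with running in Low mice (n = 4, log2 fold change -0.37, unadjusted p = 0.0132 in edgeR's fit). The serum response factor gene Srf had 98.5 ± 1.86 CPM in High Control (n = 3) and 73.6 ± 6.38 in High Run (n = 4, log2 fold change -0.42, unadjusted p = 0.00203 in edgeR's fit). Every High Run mouse was below every High Control mouse for Srf and for Ppp3cb, as was so for 3.6% of all genes.

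Of 17 partner and coregulator genes, 4 were lower and 0 higher with running in Low mice (median -0.26), beside 7.52% of all genes lower. The count was 0 without D9 and 2 without D57, where 2.4% and 3.64% of all genes were lower. In High mice 1 of the 17 was lower and 0 higher (1.9% and 3.28% of all genes), with a median of 0.01. That count was 0 without D23 or D25 and 2 without D62, where 1.34%, 1.32% and 1.44% of all genes were lower. Rxra had log2 fold changes of -0.46 in Low (unadjusted p = 0.0132) and -0.37 in High mice (unadjusted p = 0.0516). The coactivator gene Ncoa1 had a value of -0.47 in Low mice (unadjusted p = 0.0155). Among 34 other nuclear receptors that could be tested of 46 listed, which include Rxra, 4 were lower with running in Low mice and 0 in High mice, and 0 were higher in either, beside 7.52% and 1.9% of all genes lower. Without D9 the Low count was 2 (2.4% of all genes). In High mice 1 was higher without D23 or D53 (375 of 17353 and 610 of 16769 genes). On the lower side there was 1 without D25, D53 or D62 (1.32%, 2.53% and 1.44% of all genes). The orphan receptor gene Nr2c2 was lower in Low mice (log2 fold change -0.53, unadjusted p = 0.0103), and Nr2f1 had the smallest p after Rxra in High mice (0.62, unadjusted p = 0.0582).

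Genes of glucose and fat use that have been linked to Nr4a receptors in muscle gave 1 higher and 2 lower of 24 in Low mice (5.92% and 7.52% of all genes). In High mice 0 of 24 were higher or lower (3.28% and 1.9% of all genes). In Low mice 4 were lower without D11 or D98 (9.55% and 10.2% of all genes) and 3 without D68 (5.34%). Without D8, D9, D57, D61 or D66, 1 was lower (2.4% to 7.91%). In High mice 3 were lower without D53 (2.53% of all genes), 1 was lower without D62 (1.44%) and 2 were lower without D49 (2.83%). On the higher side there was 1 without D49 (648 of 16834 genes) and 1 without D52 (492 of 16785 genes). The phosphatidate phosphatase gene Lpin1 ranged from 377 to 1305 CPM in Low Control and from 238 to 362 in Low Run (log2 fold change -1.16, unadjusted p = 0.00743). The mitochondrial transcription factor gene Tfb1m had 7.04 ± 1.67 CPM (SD, n = 4) without and 10.7 ± 0.545 with running in Low mice (n = 4, log2 fold change 0.61, unadjusted p = 0.00367 in edgeR's fit). Both genes were without overlap between the Low groups, as were 3.59% of all genes on the lower side and 3.35% on the higher side. In High mice the smallest p-values were those of the phosphorylase kinase gene Phkg1 (log2 fold change -0.57, unadjusted p = 0.0504) and of the mitochondrial carrier gene Ucp2 (0.78, unadjusted p = 0.0667), and the list's median was -0.17. No gene of these 5 lists passed the adjusted threshold in edgeR.

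**Figure D5:**
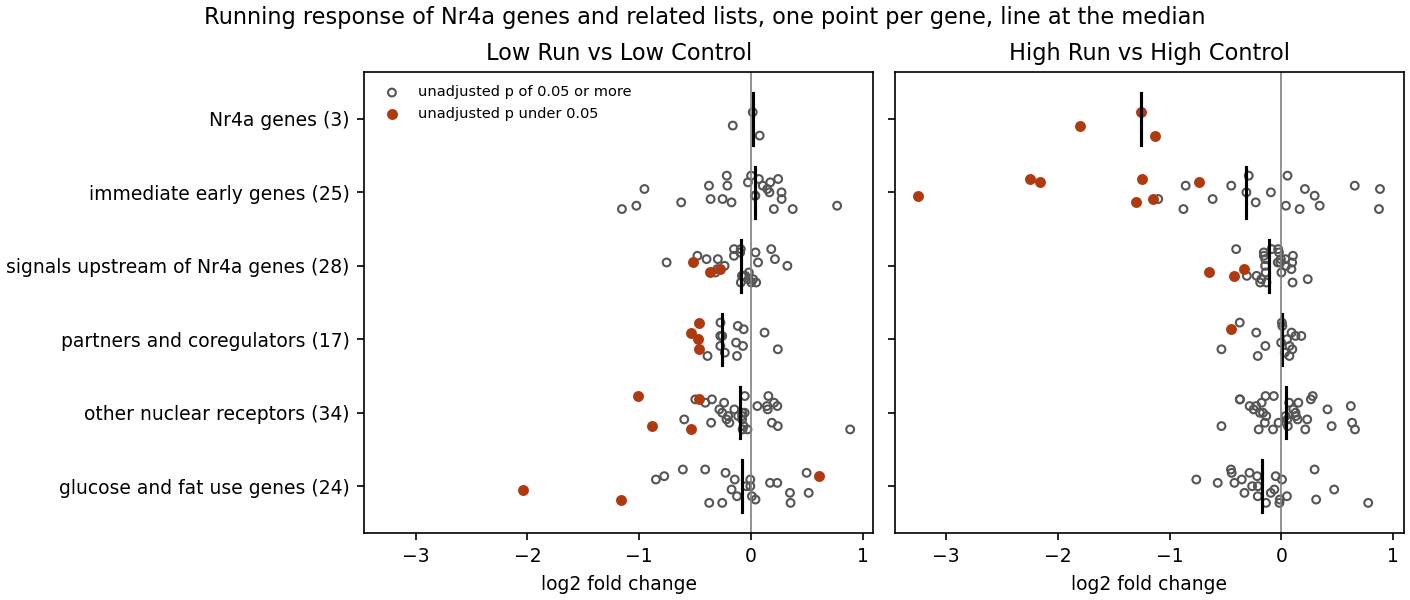
Running responses of the Nr4a genes and of 5 related gene lists. The x axis is the log2 fold change for Low Run vs Low Control (left) and High Run vs High Control (right), each point is 1 gene, filled where the unadjusted p was under 0.05, black lines are list medians, and numbers in brackets are genes tested. In High mice the 3 Nr4a genes, 7 of 25 immediate early genes, 3 of 28 upstream signal genes and 1 of 17 partner genes are filled on the lower side. The other receptors and the glucose and fat use genes have 0 filled points there.

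Markers of other cell types moved in the same comparison. In High mice 5 of 5 erythroid genes and 5 of 8 macrophage genes were higher after running at an unadjusted p under 0.05, beside 3.28% of all genes, among them the haemoglobin gene Hbb-bs (log2 fold change 2.13) and the lysosomal gene Cd68 (1.01). Without D53 the erythroid count was 1 of 5, and without D23 the macrophage count was 2 of 8, where 610 of 16769 and 375 of 17353 genes were higher. The summed erythroid level ranged from 312 to 488 CPM in High Control and from 385 to 3860 in High Run, and the summed macrophage level from 96.8 to 150 and from 129 to 284. Of 6 lymphocyte genes tested 1 was higher, and the summed level of the 8 listed ranged from 0.554 to 2.43 CPM in High Control and from 2.43 to 4.13 in High Run. The summed level of 11 muscle fibre genes ranged from 169656 to 197708 CPM in High Control and from 132641 to 164504 in High Run, without overlap. Of all single genes 3.6% were without overlap on the lower side. Of the 11 genes 1 was lower at an unadjusted p under 0.05 (1.9% of all genes), Myh4 (log2 fold change -0.44, unadjusted p = 0.0302), and 0 were higher. The slow myosin gene Myh7 had 735 ± 190 CPM in High Control (SD, n = 3) and 1126 ± 382 in High Run (n = 4). Myh4 was lower with running in Low mice as well (-0.48, unadjusted p = 0.0133), and its interaction value was 0.04 (unadjusted p = 0.874). Over the 11 fibre genes the median interaction value was -0.23 (0.03 over all genes), and 0 had an unadjusted p under 0.05. In Low mice 6 of 6 lymphocyte genes were higher after running (summed level 0.772 to 2.17 CPM in Low Control and 1.65 to 31.3 in Low Run), 2 of 8 macrophage genes were higher and 2 of 7 adipocyte genes were lower, beside 5.92% of all genes higher and 7.52% lower. Without D61 the lymphocyte count was 2 of 6, where 863 of 16767 genes were higher. Cd3e, Cd3g and Cd79a had at most 0.310 CPM in any Control mouse, and up to 3.17, 3.13 and 5.22 CPM in Low Run. Such genes passed the filter on low counts through running mice, so the lymphocyte counts lean on the groups where these genes were high. Cd3d and Cd8a of the list did not pass it. The macrophage count was 0 without D8, D9 or D57, 1 without D61 or D68 and 4 without D11. Over these fits the genes higher ran from 442 of 16832 (without D9) to 1071 of 16861 (without D11). The adipocyte count was 3 without D9, where 2.4% of all genes were lower. For the interaction 5 of 5 erythroid genes (median 3.25) and 3 of 6 Schwann cell genes (median 0.73) were higher, beside 5.24% of all genes. With each mouse left out the counts were 5 of 5 and between 1 and 4 of 6. Over these fits between 785 and 2357 genes had an unadjusted p under 0.05, counting both directions. Between the control groups 3 of 5 erythroid genes were lower in High mice, and between the running groups 5 of 5 erythroid and 4 of 6 Schwann cell genes were higher in High mice. Of all genes 5.86% and 2.51% had an unadjusted p under 0.05 in these contrasts, counting both directions. Between the running groups 3 of 6 lymphocyte genes were lower in High mice, beside 0.987% of all genes. In Low Run the summed lymphocyte level was 31.3 CPM in D61 and 1.65 to 6.10 CPM in the other mice, against 2.43 to 4.13 CPM in High Run. That count was not taken with D61 left out. The summed erythroid level was 2380 CPM in D11 and 489 to 990 CPM in the other Low Control mice, and it ranged from 243 to 825 in Low Run. In High Run it was 3860 CPM in D53 and 385 to 1335 CPM in the other mice. The counts between the control groups and between the running groups were not taken with mice left out. The summed Schwann cell level ranged from 131 to 247 CPM in Low Control, 100.5 to 172 in Low Run, 176 to 209 in High Control and 135 to 380 in High Run. The neutrophil gene Ly6g was at 0 in 6 of the 15 mice, and of the lymphocyte genes Cd8a was at 0 in 3, Cd3d, Cd3g and Ms4a1 in 2 each and Cd79a in 1. The part of these cell types in the Nr4a values was not tested, and in whole muscle fewer cells of a type and less RNA per cell cannot be told apart.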

How the data were processed

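Polyadenylated RNA of the gastrocnemius from 15 mice was analyzed, grouped by frailty and running as the sample labels give them. Per the labels and the study's methods, the authors used STAR 2.7.9a (genome mm10) and then featureCounts, which counted properly paired, uniquely placed fragments of the gene's strand for each Ensembl gene. The deposited counts are whole numbers without normalization, and the authors also deposited DESeq2's variance-stabilized values, on a log2 scale. Counts (19395125 to 30699216 per mouse) were filtered with filterByExpr, scaled by TMM and tested with edgeR 4.0.16 in R 4.3.3 (quasi-likelihood F-test, 1 mean per group, all 15 mice), with Benjamini-Hochberg adjustment over 16920 genes and a threshold of 0.1. DESeq2 1.42.0, limma 3.58.1 (voom with quality weights, and on the deposited values), other normalizations and filters, fits of only the groups compared and the omission of each mouse were alternatives. CPM used TMM library sizes. Lengths were the union of GENCODE M21 exons. Correlations of log2(CPM + 0.5) were tested by 100000 permutations, two-sided, in Python 3.11.15 with SciPy 1.17.1. Scripts were tested on simulated data.

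The members and gene lists were chosen with earlier results of these data known. Named were the Nr4a genes, the 2 genes per list with the smallest p in each running comparison (for cell type lists a part of these is given, and 1 gene of the partner list is not reported here), the 5 genes most like each member, and Acta1, Ckm and Myh4. The lists covered immediate early genes, upstream signals, partners, other receptors, glucose and fat use, and 11 cell types. Neutrophil, endothelial, smooth muscle, fibroblast, satellite and Schwann cell lists had at most 1 gene with an unadjusted p under 0.05 in either running comparison. P-values of the contrasts set differences between group means against the variation between mice, and those of the correlations come from permuting the mice regardless of group. No sequencing batch is given in the sources used here.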

Additional observations from a re-analysis of the deposited data

Results flagged for a closer look

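Among the 9 groups of 4 mice in which a lone high or low mouse was looked for (3 genes in 3 groups, High Control with 3 mice not tested), both of those found concerned Nr4a2. In Low Control, D8 had 5.60 CPM while the other mice had 3.32 to 3.56 CPM, and on the log2 scale the gap was 0.868 of the group's whole range. In High Run, D49 had 2.55 CPM while the others had 3.37 to 3.53 CPM, and on the log2 scale the gap was 0.862 of the range. Dixon's critical value for 4 samples is 0.829, and chance flags about 1 in 20 groups. Without D8 the log2 fold change of Nr4a2 from Low Control to Low Run was 0.23, and with all mice it was 0.02.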

How the results depend on the processing

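No paired analysis was possible because mouse numbers are not shared between groups. Over 9 alternatives and the omission of each mouse, the lower values of the 3 Nr4a genes in High Run against High Control kept their direction. Their log2 fold changes with 1 mouse left out ranged from -1.42 to -0.93 (Nr4a1), -1.64 to -0.71 (Nr4a2) and -2.14 to -1.13 (Nr4a3), and the smaller sizes came without D23. Without a filter on low counts, 1 Nr4a gene passed the threshold instead of 0, Nr4a1 at -1.15 (adjusted p = 0.0927 in edgeR), for which the cause was not tested. Genes passing over the whole table numbered 0 in the main analysis of each contrast. Without the filter they were 86 (Low running), 19 (High running), 81 (running averaged), 4 (interaction) and 6 (High Run against Low Run), with DESeq2 10, 15 and 106 for the running contrasts, and with voom 45 for High running. In Low mice the sign was not fixed. For Nr4a3 the value of -0.16 became 0.79 with voom and 0.21 on variance-stabilized values, and for Nr4a2 the value of 0.02 became -0.0086 on the latter. With 1 mouse left out these ranged from -0.052 to 0.22 (Nr4a1), -0.21 to 0.23 (Nr4a2) and -0.90 to 0.86 (Nr4a3, highest without D9, lowest without D57), and High Control against Low Control from -0.22 (without D23) to 1.48 (without D9) for Nr4a3. The interaction for Nr4a3 ranged from -2.67 (without D9) to -0.90 (without D57), and that for Nr4a2 from -1.66 to -0.72 (without D23). Leaving out D8 put 2 relations past the adjusted permutation p of 0.05 used for the relations, Nr4a1 with Nr4a3 (r = 0.544, range 0.293 to 0.544) and Nr4a2 with Nr4a3 (r = 0.569, range 0.241 to 0.569). The relation of Nr4a1 with Nr4a2 held throughout, with r from 0.795 to 0.889. Of 540 values recomputed for 33 results on other named genes, 0 changed direction and 11 came past the threshold. With 54 counts in the lowest mouse, Nr4a2 is the member that depth limits most.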
